A study of Mus musculus with 10 samples.

Results

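Enzymes that make serine and move its single-carbon unit onto folate were followed as a set of 10 genes in primary mouse hippocampal neuron cultures under endoplasmic reticulum (ER) stress. They were chosen by symbol: Phgdh, Psat1 and Psph of serine synthesis, Shmt1 and Mthfd1 of the cytosolic folate route, and Shmt2, Mthfd1l, Mthfd2, Mthfd2l and Aldh1l2 of the mitochondrial route. Each symbol matched 1 of the 48709 gene identifiers of the count tables, and all 10 were among the 15660 genes that passed the filter on low counts. Both groups were cultures from the hippocampus at 10 days in vitro, exposed for 6 h. The 6 tunicamycin libraries came from cultures given tunicamycin at 2 ug/mL, and the 4 DMSO libraries from cultures given the solvent DMSO. Tunicamycin inhibits the enzyme that starts N-linked glycans, which leaves glycoproteins unable to fold in the ER. The question behind the comparison is how these cultures respond to ER stress at the transcript level. No strain, genotype, age or sex of the source animals is stated in the labels, and no separate cultures are named for the libraries of a group, so p-values measure the spread between libraries, which may be technical.

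Serine is made from the glycolytic intermediate 3-phosphoglycerate by a dehydrogenase (Phgdh), an aminotransferase (Psat1) and a phosphatase (Psph). Serine hydroxymethyltransferase then splits serine into glycine and a carbon unit that is carried by tetrahydrofolate, in the cytosol by Shmt1 and in mitochondria by Shmt2. In mitochondria the unit is oxidised to formate, which leaves for the cytosol and is used there for purines, thymidylate and methionine. Many of these genes are known targets of ATF4, a transcription factor whose translation rises when ER stress activates the kinase Perk. In brain, serine and glycine are also signalling molecules, and astrocytes are known as a main site of serine synthesis.

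The libraries held 21055289 to 29234887 counts and a count for 22182 to 23651 genes. The response markers Hspa5, the main ER chaperone, and Ddit3, a stress transcription factor, rose by log2 2.38 and 2.93 under edgeR's quasi-likelihood test. The cultures were not neurons alone: the astrocyte markers Slc1a3 and Gfap stood at 492 ± 22.6 and 318 ± 29.4 CPM (counts scaled to a library total of 1e+06) with tunicamycin, and at 867 ± 30.7 and 460 ± 37.2 CPM with DMSO (SD, n = 6 and 4). RNA of whole cultures was counted, so fewer cells of a type and less RNA per cell cannot be told apart, and no change can be assigned to neurons or glia. Libraries were spread over 3 sequencing lanes, as the lane tags of the count tables give them, each lane with both groups.

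Tunicamycin raised 7 of the 10 enzyme transcripts, lowered 1 and left 2 without a call. Phgdh, Psat1, Psph, Shmt2, Mthfd1l, Mthfd2 and Aldh1l2 rose, Mthfd1 fell, and Shmt1 and Mthfd2l did not pass the test. The threshold for a call was 0.05 on the adjusted p of edgeR's quasi-likelihood test, fitted and adjusted over all 15660 genes. Such calls were common: of all genes tested 64.3% were called, 31.8% higher and 32.5% lower, which makes the size of a change more telling than its call. A called rise of at least 2-fold was found for Psph, Shmt2, Mthfd1l, Mthfd2 and Aldh1l2, 5 of the 10 members, against 2.78% of all genes tested. Every tunicamycin library lay above every DMSO library for 6 members and for 27.0% of all genes. Every tunicamycin library lay below every DMSO library for 1 member and for 23.9% of all genes. The median log2 fold change, tunicamycin over DMSO, was 1.0 over the 10 members and -0.02 over all genes. Under upper-quartile scaling the median of all genes moved by -0.115 and the calls over all genes were 3632 higher and 6934 lower, against 4983 and 5082 in the main analysis. The members then split into 6 higher and 1 lower, Phgdh losing its call.

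**Figure D1:**
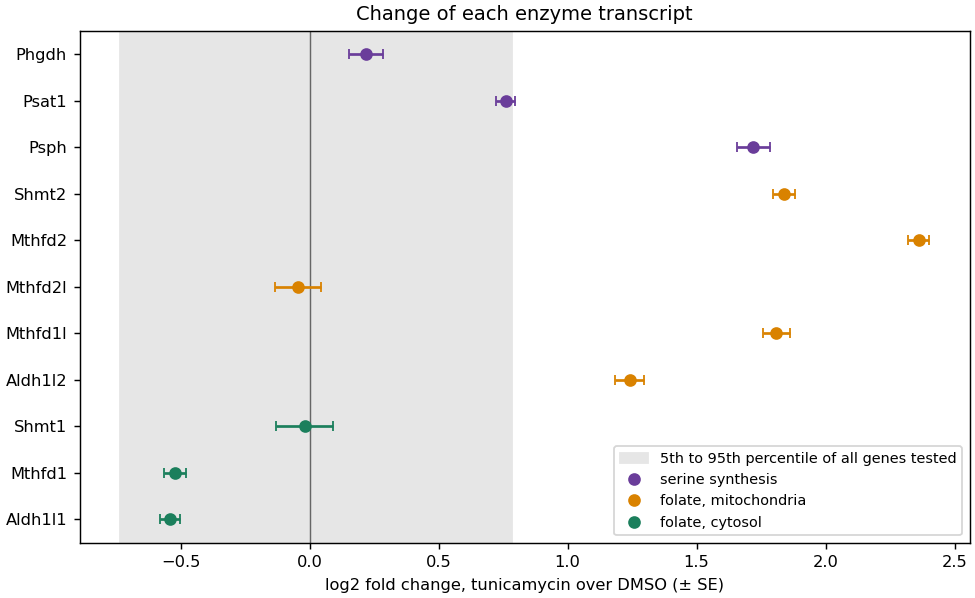
Log2 fold change (tunicamycin over DMSO, horizontal axis) with its standard error for the 10 enzyme transcripts and for Aldh1l1, the cytosolic partner of Aldh1l2, coloured by route; the grey band spans the 5th to the 95th percentile of all 15660 genes. Psph, Shmt2, Mthfd2, Mthfd1l and Aldh1l2 lie above the band, Psat1 near its upper edge, and the others inside it.

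To show the sequence before a RefSeq start of members that moved most and least, 250 bases are printed for Mthfd2, Shmt2 and Mthfd1l, which rose most among the mitochondrial enzymes, for Phgdh, which moved least of the called genes, and for Mthfd1, which fell. Sequences are from RefSeq on GRCm38.p6 and run 5′ to 3′ on the strand of the gene; capitals mark a match to any of the 5 motifs searched. They are, in the order printed, chr6:83317605-83317854 (minus strand), chr10:127522445-127522694 (minus), chr10:3972825-3973074 (plus), chr3:98339970-98340219 (minus) and chr12:76254982-76255231 (plus). The Mthfd2 stretch lies inside the span that GENCODE gives the gene, before a start that is internal to that span. The RefSeq starts of Mthfd1l and Mthfd1 lie upstream of the GENCODE gene starts, at 3973118 and 76255298.
Mthfd2: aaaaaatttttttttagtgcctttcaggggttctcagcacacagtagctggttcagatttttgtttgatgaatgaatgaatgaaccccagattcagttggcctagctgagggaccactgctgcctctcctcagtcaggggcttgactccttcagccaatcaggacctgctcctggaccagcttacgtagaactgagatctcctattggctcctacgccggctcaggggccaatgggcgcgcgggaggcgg
Shmt2: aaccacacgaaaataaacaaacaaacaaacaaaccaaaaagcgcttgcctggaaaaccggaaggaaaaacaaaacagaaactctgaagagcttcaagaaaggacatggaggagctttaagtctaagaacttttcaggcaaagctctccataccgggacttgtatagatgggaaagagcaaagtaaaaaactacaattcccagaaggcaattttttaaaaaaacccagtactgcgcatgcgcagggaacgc
Mthfd1l: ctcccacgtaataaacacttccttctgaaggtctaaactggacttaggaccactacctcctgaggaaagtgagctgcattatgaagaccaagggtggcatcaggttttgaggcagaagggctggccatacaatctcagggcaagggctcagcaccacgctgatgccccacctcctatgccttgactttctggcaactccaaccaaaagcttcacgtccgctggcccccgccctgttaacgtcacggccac
Phgdh: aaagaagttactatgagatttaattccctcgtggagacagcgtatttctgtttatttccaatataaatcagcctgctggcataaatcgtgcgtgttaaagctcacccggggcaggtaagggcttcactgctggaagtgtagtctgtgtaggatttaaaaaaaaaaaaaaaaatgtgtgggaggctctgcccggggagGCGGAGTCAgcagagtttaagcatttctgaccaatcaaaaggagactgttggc
Mthfd1: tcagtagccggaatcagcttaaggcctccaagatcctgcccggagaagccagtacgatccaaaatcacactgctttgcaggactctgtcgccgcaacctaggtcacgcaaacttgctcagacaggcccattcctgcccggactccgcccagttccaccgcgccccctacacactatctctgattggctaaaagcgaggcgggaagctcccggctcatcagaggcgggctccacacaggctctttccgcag

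The RefSeq table held windows for 9 of the 10 members, with 10 windows in all because Psat1 has a pair, each reaching from 250 bases before to 50 bases after the start. Both Psat1 windows and the Shmt1 window lie inside the spans that GENCODE gives these genes. Both strands were searched. The C/EBP-ATF response element TGATGNAA, which ATF4 binds with a C/EBP partner, matched 0 of the 10 windows and 3.97% of the 32851 windows in the table. The ER stress response element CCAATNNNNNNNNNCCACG matched 0 of 10 and 0.119% of all windows, and the unfolded protein response element TGACGTGG matched 0 of 10 and 0.676%. The E-box CACGTG, bound by Myc and its relatives, matched 0 of 10 and 7.15%. The antioxidant response element core TGACNNNGC matched 2 of 10, those of Phgdh and Psph, and 12.4% of all windows. The Phgdh match is on the opposite strand and begins 53 bases before the start. A window without a match says only that these letters are not in it. The windows had a GC content of 42.7% for Shmt2 up to 66.7% for a Psat1 window, against a median of 52.7% in the table. They held 8 to 30 CpG dinucleotides, all 10 above the median of 7.

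In the serine synthesis route the last enzyme changed most and the first least. Phgdh, 3-phosphoglycerate dehydrogenase and the entry enzyme of the route (ENSMUSG00000053398, chromosome 3, 98313170 to 98339990, minus strand, GRCm38), had 21.1 CPM at the lowest, 21.3 at the median and 22.7 at the highest in the tunicamycin libraries, against 18.4, 15.6, 21.6 and 18.4 CPM in DMSO libraries 1 to 4. The groups overlapped, because the third DMSO library stood above most tunicamycin libraries. Phgdh averaged 21.5 ± 0.591 CPM with tunicamycin and 18.5 ± 2.46 CPM with DMSO, a log2 fold change of 0.22 ± 0.07 (SE; edgeR adjusted p = 0.00726). The edgeR adjusted p was 0.178 under upper-quartile scaling, with log2 0.10, and 0.0569 without DMSO replicate 2, with log2 0.14. Lane 2 alone gave log2 -0.00296, lane 1 gave 0.33 and lane 3 gave 0.22. Counts of Phgdh are also uncertain for another reason: 47.8% of its 50-base words, the read length here, occur in transcripts of other genes, among them 20 pseudogenes. The 15 of these pseudogenes with a row in the tables held 5.98% to 12.1% as many counts as Phgdh, and with their counts added the log2 fold change was 0.21 (edgeR adjusted p = 0.00402).

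Psat1, phosphoserine aminotransferase (ENSMUSG00000024640, chromosome 19, 15904678 to 15947337, minus strand), had 289 CPM at the lowest, 310.1 at the median and 316 at the highest with tunicamycin, against 186, 168, 184 and 183 CPM in DMSO libraries 1 to 4. All tunicamycin libraries were above all DMSO libraries, by far more than the spread within either group. It changed by log2 0.76 ± 0.04 (SE; edgeR adjusted p = 6.2e-14), and 0.84, 0.73 and 0.69 in lanes 1, 2 and 3 fitted alone. Psat1 was rank 840 from the top among all genes tested, a moderate rise on the most abundant transcript of the set.

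Psph, phosphoserine phosphatase, makes serine in the final step (ENSMUSG00000029446, chromosome 5, 129765558 to 129787449, minus strand). It had 79.1 CPM at the lowest, 82.3 at the median and 85.9 at the highest with tunicamycin, against 22.8, 21.7, 29.0 and 26.1 CPM in DMSO libraries 1 to 4. The groups were far apart, and the DMSO libraries varied more, relative to their mean, than the tunicamycin libraries. The rise was 3.29-fold, log2 1.72 ± 0.06 (SE; edgeR adjusted p = 3.17e-13), rank 113 among all genes. Lanes 1, 2 and 3 gave log2 1.94, 1.49 and 1.60. Psph shares 10.4% of its exonic bases with Cct6a on the other strand, and without strand in the libraries reads there cannot be told apart.

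**Figure D2:**
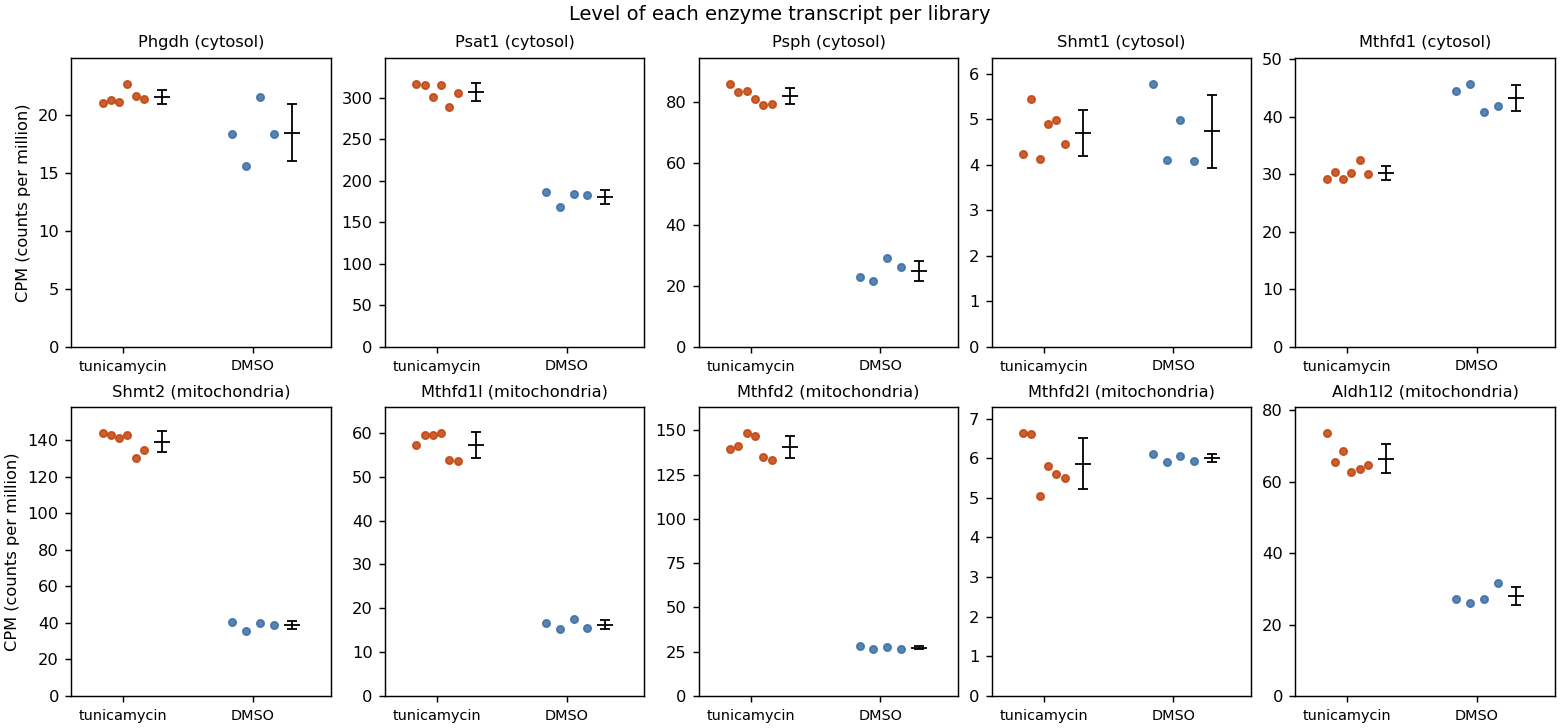
CPM of each of the 10 enzyme transcripts in every library, with a panel per gene and a vertical axis from 0; points are libraries (6 tunicamycin, 4 DMSO), and the bar is the mean ± SD. The groups overlap for Phgdh, Shmt1 and Mthfd2l, Mthfd1 is lower with tunicamycin, and the other 6 are higher with no overlap.

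The ratio of these enzymes within a library does not depend on how libraries are scaled. The log2 ratio of Psph to Phgdh counts averaged 1.93 ± 0.0743 with tunicamycin and 0.43 ± 0.0871 with DMSO, a difference of 1.5. The log2 ratio of Psat1 to Phgdh averaged 3.83 ± 0.0613 with tunicamycin and 3.29 ± 0.146 with DMSO, a difference of 0.54. In both, every tunicamycin library was above every DMSO library. A two-sided exact permutation test over the 210 ways to split the libraries gave p = 0.00476 for each, the smallest p this design allows, and 0.00476 after Benjamini-Hochberg adjustment over the 7 ratios tested. Psph and Psat1 thus gained on Phgdh by 2.83-fold and 1.45-fold, and the doubt about Phgdh counts applies to both ratios.

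The mitochondrial folate enzymes rose together, with Mthfd2l as the exception. Shmt2, mitochondrial serine hydroxymethyltransferase (ENSMUSG00000025403, chromosome 10, 127517123 to 127522444, minus strand), had 130.1 CPM at the lowest, 142 at the median and 144 at the highest with tunicamycin, against 40.3, 35.6, 40.0 and 39.1 CPM in DMSO libraries 1 to 4. The groups did not overlap and each was tight. Its rise was 3.58-fold, log2 1.84 ± 0.04 (SE; edgeR adjusted p = 2.13e-19), with 1.93, 1.81 and 1.75 in lanes 1, 2 and 3.

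Mthfd2 is the mitochondrial methylenetetrahydrofolate dehydrogenase and cyclohydrolase that is high in embryonic and dividing cells (ENSMUSG00000005667, chromosome 6, 83305691 to 83325908, minus strand). It had 133 CPM at the lowest, 140.3 at the median and 148 at the highest with tunicamycin, against 28.1, 26.7, 27.7 and 26.4 CPM in DMSO libraries 1 to 4. This was the largest change of the set, log2 2.36 ± 0.04 (SE; edgeR adjusted p = 1.11e-21), rank 44 among all genes tested. Lanes 1, 2 and 3 gave log2 2.36, 2.39 and 2.34, and the range was 2.35 to 2.38 when each library was left out in turn.

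Mthfd2l, the related enzyme that is more common in adult tissue (ENSMUSG00000029376, chromosome 5, 90931117 to 91021368, plus strand), had 5.04 CPM at the lowest, 5.70 at the median and 6.63 at the highest with tunicamycin, against 6.11, 5.92, 6.04 and 5.94 CPM in DMSO libraries 1 to 4. The DMSO values lie within the range of the tunicamycin values. The change was log2 -0.04 ± 0.09 (SE; edgeR adjusted p = 0.684), and the lanes gave 0.15, -0.19 and -0.10. Its counts were low, 122 to 168 per library, which limits what could be seen. The log2 ratio of Mthfd2 to Mthfd2l counts averaged 4.59 ± 0.177 with tunicamycin and 2.18 ± 0.0222 with DMSO (exact permutation p = 0.00476, adjusted over 7 ratios 0.00476), so the balance between these enzymes moved 5.31-fold towards Mthfd2.

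Mthfd1l, the mitochondrial formyltetrahydrofolate synthetase that releases formate (ENSMUSG00000040675, chromosome 10, 3973118 to 4167081, plus strand), had 53.7 CPM at the lowest, 58.4 at the median and 59.9 at the highest with tunicamycin, against 16.6, 15.3, 17.5 and 15.6 CPM in DMSO libraries 1 to 4. The groups were well separated. It changed by log2 1.81 ± 0.05 (SE; edgeR adjusted p = 5.2e-18), close in size to that of Shmt2, with 1.88, 1.75 and 1.78 in lanes 1, 2 and 3.

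Aldh1l2 is the mitochondrial formyltetrahydrofolate dehydrogenase, which oxidises the carbon unit to carbon dioxide and yields NADPH (ENSMUSG00000020256, chromosome 10, 83487450 to 83534140, minus strand). It had 62.7 CPM at the lowest, 65.2 at the median and 73.5 at the highest with tunicamycin, against 27.1, 26.1, 27.1 and 31.6 CPM in DMSO libraries 1 to 4. The lowest tunicamycin library still stood far above the highest DMSO library. It changed by log2 1.24 ± 0.06 (SE; edgeR adjusted p = 2.7e-13), with 1.39, 1.26 and 1.01 in lanes 1, 2 and 3. Aldh1l2 shares 14.1% of its exonic bases with D10Wsu102e, so part of its counts may come from that gene.

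The cytosolic folate enzymes did not rise. Mthfd1, the cytosolic enzyme with all 3 of the synthetase, cyclohydrolase and dehydrogenase activities (ENSMUSG00000021048, chromosome 12, 76255298 to 76319803, plus strand), had 29.2 CPM at the lowest, 30.1 at the median and 32.4 at the highest with tunicamycin, against 44.4, 45.6, 40.8 and 41.8 CPM in DMSO libraries 1 to 4. Every tunicamycin library was below every DMSO library. Mthfd1 fell to 0.696 of its DMSO level, log2 -0.52 ± 0.04 (SE; edgeR adjusted p = 5.96e-10), with -0.59, -0.48 and -0.43 in lanes 1, 2 and 3.

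Shmt1, the cytosolic serine hydroxymethyltransferase (ENSMUSG00000020534, chromosome 11, 60788104 to 60811718, minus strand), had 4.12 CPM at the lowest, 4.67 at the median and 5.44 at the highest with tunicamycin, against 5.77, 4.10, 4.98 and 4.08 CPM in DMSO libraries 1 to 4. The groups overlapped throughout. The change was log2 -0.02 ± 0.11 (SE; edgeR adjusted p = 0.891) on only 90 to 138 counts per library, and lanes 1, 2 and 3 gave -0.01, -0.17 and 0.20.

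Aldh1l1, the cytosolic partner of Aldh1l2 and a common marker of astrocytes, is not one of the 10 but completes the pairs. It averaged 50.1 ± 1.89 CPM with tunicamycin and 72.5 ± 3.60 CPM with DMSO, a log2 fold change of -0.54 ± 0.04 (SE; edgeR adjusted p = 5.12e-11). All tunicamycin libraries were below all DMSO libraries, as for Mthfd1. Aldh1l1 overlaps Gm15756 and Gm45901 in 13.4% of its exonic bases.

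Several lists of cell type markers had lower summed levels with tunicamycin, as Mthfd1 and Aldh1l1 did, and others did not. Over all genes tested, 31.8% were called higher and 32.5% lower, the background for the counts of calls below. All 10 tested astrocyte markers of 11 listed fell under edgeR, with a summed level over the list of 2183 to 2422 CPM with tunicamycin and 3185 to 3597 CPM with DMSO. All 14 proliferation markers fell too, and their summed level was 98.3 to 116 CPM with tunicamycin and 160 to 203 CPM with DMSO. Of 8 tested microglial markers of 10 listed, 6 fell and 0 rose, with sums of 12.1 to 14.9 CPM with tunicamycin and 16.9 to 21.4 CPM with DMSO. Of 12 pan-neuronal markers, 11 fell and 0 rose, at a median of -0.20 on the log2 scale, with sums of 7365 to 7764 CPM with tunicamycin and 8781 to 9225 CPM with DMSO. Of 8 tested oligodendrocyte lineage markers of 10 listed, 1 rose and 4 fell, with sums of 122 to 147 CPM with tunicamycin and 193 to 240.2 CPM with DMSO. Of 7 neural progenitor markers 2 rose and 3 fell (0 rose under upper-quartile scaling), and their sums overlapped, at 732 to 912 CPM with tunicamycin and 621 to 960.5 CPM with DMSO. Of 11 tested markers of endothelial, fibroblast and mural cells 2 rose and 2 fell, and the sums over the 12 listed were 291 to 426 CPM with tunicamycin and 202 to 342 CPM with DMSO, which also overlap. The 4 haemoglobin genes of red blood cells did not pass the filter, with sums of 0.0419 to 0.380 CPM with tunicamycin and 0 to 0.347 CPM with DMSO. No marker on these lists was at 0 in every library. Their part in the changes of the enzymes was not tested.

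**Figure D3:**
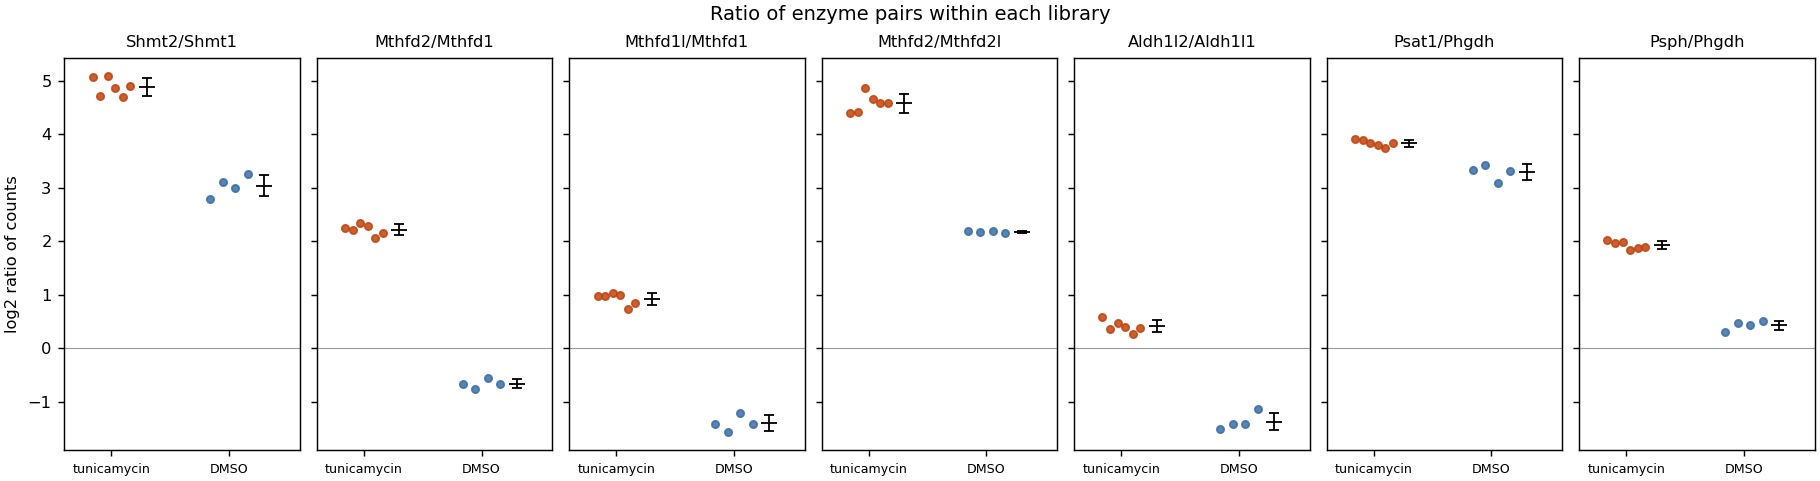
Log2 ratio of the counts of 7 enzyme pairs within each library (vertical axis); points are libraries (6 tunicamycin, 4 DMSO) and the bar is the mean ± SD. In every pair all tunicamycin libraries lie above all DMSO libraries, with the widest gap for Mthfd2 over Mthfd1, at 2.22 with tunicamycin and -0.66 with DMSO.

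Set against their cytosolic partners, the mitochondrial enzymes gained in each pair. The ratios are of counts and not per length, so only their difference between groups is read. The log2 ratio of Mthfd2 to Mthfd1 averaged 2.22 ± 0.102 with tunicamycin and -0.66 ± 0.0871 with DMSO, a 7.37-fold gain. For Mthfd1l over Mthfd1 it averaged 0.92 ± 0.113 with tunicamycin and -1.41 ± 0.146 with DMSO, a 5.03-fold gain. The sign of both ratios differed between the groups: each mitochondrial enzyme had more counts than Mthfd1 with tunicamycin and fewer with DMSO. The log2 ratio of Shmt2 to Shmt1 averaged 4.89 ± 0.171 with tunicamycin and 3.04 ± 0.191 with DMSO, a 3.61-fold gain. For Aldh1l2 over Aldh1l1 it averaged 0.41 ± 0.113 with tunicamycin and -1.38 ± 0.163 with DMSO, a 3.44-fold gain. All 4 reached p = 0.00476 in the two-sided exact permutation test, the smallest it allows (0.00476 adjusted over 7 ratios), with all 6 tunicamycin libraries above all 4 DMSO libraries. Within lanes, which hold too few libraries for a test, the differences in log2 ratio were 2.95, 2.87 and 2.77 for Mthfd2 over Mthfd1 and 1.94, 1.98 and 1.55 for Shmt2 over Shmt1, in lanes 1, 2 and 3.

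Levels of different genes were compared as CPM per kb of exonic length. With tunicamycin the order was Psat1 (72.2 CPM per kb), Shmt2 (44.8), Mthfd2 (40.4), Psph (19.0), Mthfd1l (12.9), Aldh1l2 (8.86), Phgdh (8.66), Mthfd1 (6.80), Shmt1 (1.21) and Mthfd2l (0.882). Shmt2 and Mthfd2 overlapped in their library ranges, but Shmt2 stood above Mthfd2 within every tunicamycin library. Aldh1l2 and Phgdh overlapped too, and their order differed between libraries, so that pair cannot be ordered. With DMSO the order was Psat1 (42.4), Shmt2 (12.5), Mthfd1 (9.72), Mthfd2 (7.81), Phgdh (7.43), Psph (5.74), Aldh1l2 (3.73), Mthfd1l (3.67), Shmt1 (1.22) and Mthfd2l (0.903). Here Mthfd2 overlapped Phgdh and Aldh1l2 overlapped Mthfd1l, and the order within both pairs differed between libraries. Phgdh overlapped Psph as well, but stood above Psph within every DMSO library. Psat1 led and Shmt1 and Mthfd2l came last in both groups, while Mthfd1 was at place 8 with tunicamycin and at place 3 with DMSO.

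**Figure D4:**
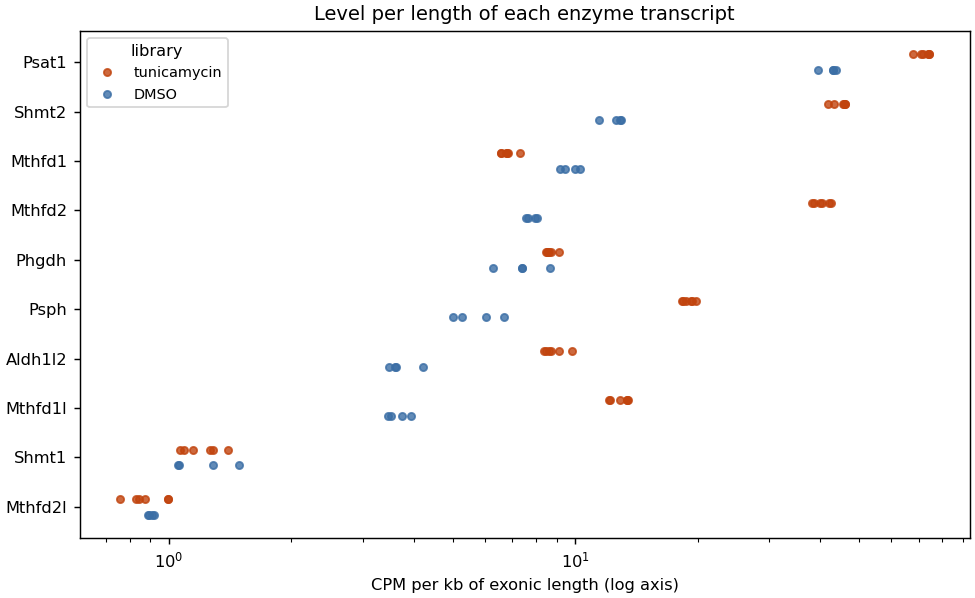
CPM per kb of exonic length (horizontal, log axis) of the 10 enzyme transcripts, a point per library (6 tunicamycin, 4 DMSO), genes ordered by their DMSO mean. Mthfd2 moved past Mthfd1, and Psat1 stayed highest with 72.2 CPM per kb with tunicamycin and 42.4 with DMSO.

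Summed per length, the 5 mitochondrial folate enzymes stood at 108 ± 4.13 CPM per kb with tunicamycin and 28.6 ± 1.11 CPM per kb with DMSO. The cytosolic Shmt1, Mthfd1 and Aldh1l1 together stood at 19.1 ± 0.733 CPM per kb with tunicamycin and 27.0 ± 1.15 CPM per kb with DMSO. Most of that sum came from Aldh1l1, at 11.1 ± 0.418 with tunicamycin and 16.1 ± 0.797 with DMSO. Aldh1l1 is an astrocyte marker and not one of the 10 members, so the share below depends on counting it. The mitochondrial share of these 8 transcripts was therefore 84.9% ± 0.912 with tunicamycin (SD, n = 6, range 83.4% to 85.7%) and 51.4% ± 1.24 with DMSO (SD, n = 4, range 50.2% to 52.6%). It describes transcripts and not enzyme amount or flux, and was not tested, since the genes that make it up are tested above.

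Calls among other folate genes were about as frequent as among all genes. Of 18 other folate enzymes and carriers 15 were tested, 5 rose, 5 fell and 5 were not called, at a median log2 fold change of -0.09 beside -0.02 for all genes, of which 31.8% were called higher and 32.5% lower. The plasma membrane folate carrier Slc19a1 rose by log2 0.90 ± 0.05 (edgeR adjusted p = 1.1e-12), with every tunicamycin library above every DMSO library. Mtrr (0.67), Fpgs (0.55) and the mitochondrial folate carrier Slc25a32 (0.40) were also among those that rose. Aldh1l1, Slc46a1 (-0.60), Folr1 (-0.49) and Ggh (-0.17) were among those that fell. Under upper-quartile scaling 5 rose and 8 fell.

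Genes that use, transport or break down serine and glycine were also called about as often as all genes (31.8% higher, 32.5% lower). Of 19 tested, 6 rose, 5 fell and 8 were not called, at a median of -0.00 on the log2 scale. With upper-quartile scaling 3 rose and 9 fell. The glycine transporter Slc6a9 rose by log2 1.44 ± 0.05 and the neutral amino acid carrier Slc1a4, which takes up serine, by 0.91 ± 0.03 (edgeR adjusted p = 5.76e-17 and 1.37e-16). Slc6a9 overlaps other genes in 30.2% of its exonic bases. Cth, which makes cysteine from cystathionine, had the largest rise of the list, log2 2.08, and was picked out after its value was seen. Its partner Cbs, which joins serine to homocysteine, fell by 0.55 on the log2 scale. Slc7a10 (-1.62), Gldc and Gcsh of the glycine cleavage system (-0.37 and -0.24) and Srr, which makes D-serine (-0.19), fell as well. Slc7a10 was low, at 0.673 ± 0.157 CPM with tunicamycin and 2.06 ± 0.534 CPM with DMSO.

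For the pathways that take up the carbon unit, counts of calls stand beside 31.8% higher and 32.5% lower over all genes. Of 13 purine synthesis genes 2 rose, Pfas (log2 0.36) and Gmps (0.21), and 5 fell, Prps2 most clearly (-0.64; edgeR adjusted p = 1.26e-09), with a median of -0.08. Of 7 tested methionine cycle genes of 10 listed, 1 rose and 2 fell, with a median of -0.03. Gnmt, a glycine methyltransferase, rose by log2 1.30 on a level of only 0.844 ± 0.208 CPM with tunicamycin and 0.340 ± 0.0666 CPM with DMSO, and Mtap fell by 0.54 on the log2 scale. Of 7 glycolysis genes around 3-phosphoglycerate 0 rose and 6 fell, with a median of -0.28, led by Pkm (-0.32) and Eno1 (-0.38). Pkm, Eno1, Gapdh, Pgk1 and Pgam1 have near-identical copies elsewhere in the genome, so their counts are uncertain. Under upper-quartile scaling 8 purine genes and 4 methionine cycle genes fell.

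Regulators known to act on serine synthesis genes mostly rose: 7 of 8 were called higher and 1 lower, beside 31.8% and 32.5% of all genes. The median of their log2 fold changes was 0.94. Under upper-quartile scaling 5 rose and 1 fell, and Mycn (0.17 in the main analysis) and Nfe2l2 (0.29) lost their calls. Atf4 averaged 594 ± 15.7 CPM with tunicamycin and 226 ± 9.51 CPM with DMSO, a log2 fold change of 1.39 ± 0.03, and its dimer partner Cebpg rose by 1.60 ± 0.04 (edgeR adjusted p = 6.48e-19 and 1.06e-18). The exception was Ehmt2, a histone methyltransferase, which fell by 0.11 on the log2 scale. All 20 other known ATF4 targets on the list rose, with a median of 2.06, among them Sesn2 (2.24) and Ddit3 (2.93), the response marker named above. These medians stand beside 1.0 for the 10 enzymes and -0.02 for all genes, as a description. The members and lists were chosen with earlier results of these data known, so their counts and medians are no independent test.

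**Figure D5:**
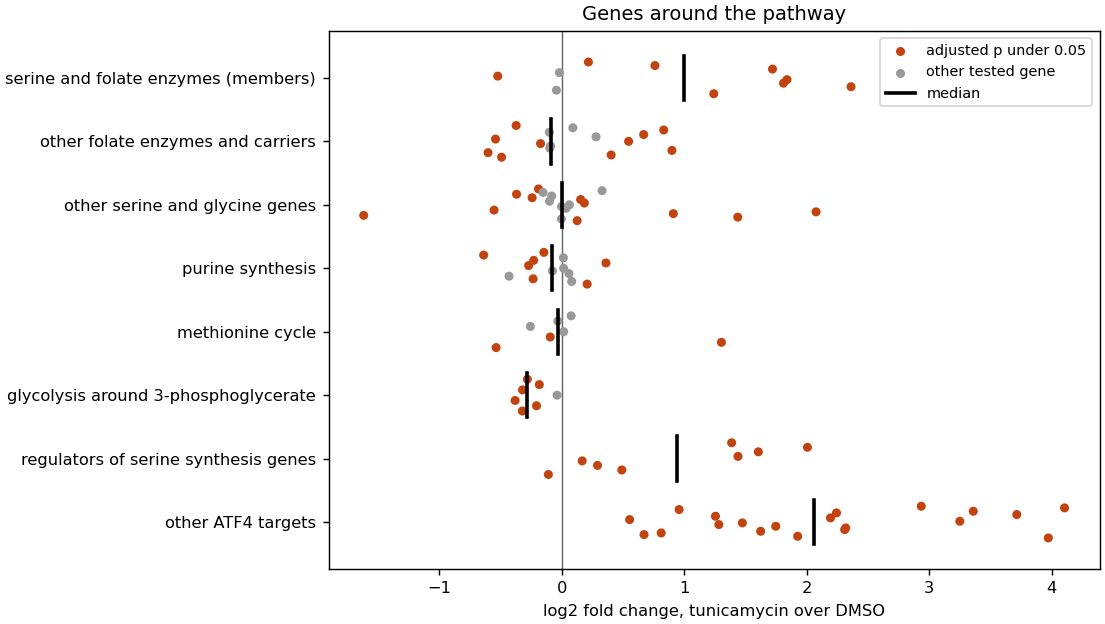
Log2 fold change (tunicamycin over DMSO, horizontal axis) of each tested gene of the 10 enzymes and of 7 surrounding lists; red points have an edgeR adjusted p under 0.05, grey points do not, and the black bar is the list's median. The enzymes (median 1.0), the regulators (0.94) and the other ATF4 targets (2.06) lie to the right, glycolysis (-0.28) to the left, and the folate, serine, purine and methionine lists lie around 0.

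The authors' deposited table of changed genes lists 8 of the 10 enzymes, leaving out Shmt1 and Mthfd2l. The authors' deposited table gives log2 fold changes of 2.36 for Mthfd2, 1.83 for Shmt2, 1.80 for Mthfd1l, 1.71 for Psph, 1.23 for Aldh1l2, 0.75 for Psat1, 0.21 for Phgdh and -0.53 for Mthfd1. The largest difference from the edgeR values for a member was 0.007. For Phgdh the authors' deposited table gives an adjusted p of 0.00488.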

How the data were processed

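Polyadenylated RNA was sequenced as 10 libraries from neuron cultures, made with a TruSeq RNA v2 kit that keeps no strand and read as 50 bp single ends, per the labels' protocols. Per the submitters' processing notes, which assign no roles, the tools were STAR 2.5.2b, Subread 1.5.1, featureCounts, FastQC 0.11.5 and DESeq2, and the build was mm10. How multi-mapping reads were treated, and on which annotation release, is not given in the sources used here. Whole-number counts per gene and library, with no normalization, were deposited. The authors also deposited lists of changed genes with log2 fold changes, p-values in raw and adjusted form, and a normalized signal per library, which equalled the counts over 1 factor per library (tolerance 1e-4) for 100% of listed values.

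Identifiers were matched to GENCODE M21 (GRCm38, another name of mm10). The 360 that did not match held 0.0462% of counts and stayed in the totals. edgeR 4.0.16 in R 4.3.3 (quasi-likelihood F test, robust, two-sided, TMM, filterByExpr) was fitted to all 10 libraries with treatment as the only term, with Benjamini-Hochberg adjustment over all genes. Each log2 fold change has as its standard error its size over the square root of F. CPM are counts per 1e+06 of the library total, and SD and n are over libraries. Ratios within libraries used a pseudocount of 0.5. Depth was 21055289 to 29234887 counts, and the lowest members, Shmt1 and Mthfd2l, rest on 90 to 168 counts per library. No library repeated another (chi-square per degree of freedom 2.07 to 9.64 within groups). Genes were called near-identical copies where 50-base words shared with other genes exceeded exonic overlap by 10 percentage points or more.

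The members and lists were chosen with earlier results of these data known. Named are the 10 members, Aldh1l1, Atf4, Ddit3, Hspa5, Slc1a3 and Gfap, of each pathway list the 2 called genes with the smallest p, and genes called against the majority of their list where 5 or fewer. In the folate list, where 5 rose and 5 fell, genes of both directions are named, and a few items are not reported here. The code was tested on simulated counts. Alternatives were DESeq2 1.42.0, its size factors, upper-quartile scaling, other filters, lane as a term, lanes alone, a replicate block, another pseudocount and leaving out each library. Counts of Phgdh with its pseudogenes and a fit of replicates 1 to 4 were added after seeing the data.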

Additional observations from a re-analysis of the deposited data

Results flagged for a closer look

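Within the tunicamycin libraries, Mthfd1 in replicate 5 stood apart, at 32.4 CPM against 29.2 to 30.3 CPM in the other 5 libraries. Its gap to the nearest library was 0.644 of the range of the group. It was still below every DMSO library, the lowest of which had 40.8 CPM. It was 1 of 22 groups of values examined for such a gap, and chance flags about 1 in 20.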

How the results depend on the processing

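The count of called members was 8 under all settings except 7 with upper-quartile scaling and a range of 7 to 8 when each library was left out in turn. Over all genes, leaving out a library gave 9593 to 9935 calls. Phgdh accounted for the losses: log2 0.10 with upper-quartile scaling (edgeR adjusted p = 0.178), 0.14 without DMSO replicate 2 (edgeR adjusted p = 0.0569; range over left-out libraries 0.14 to 0.31), and -0.00296 in lane 2 alone. Lanes alone moved other log2 fold changes by more than the spread between libraries: in lane 1 for Psat1 (0.84), Psph (1.94), Shmt2 (1.93), Aldh1l2 (1.39), Mthfd1 (-0.59) and Mthfd2l (0.15), in lane 2 for Psph (1.49) and Mthfd2l (-0.19), and in lane 3 for Psat1 (0.69), Shmt2 (1.75), Aldh1l2 (1.01), Mthfd1 (-0.43) and Shmt1 (0.20). Differences in log2 ratio moved in lane 1 for Aldh1l2/Aldh1l1 (1.94), Mthfd1l/Mthfd1 (2.47), Mthfd2/Mthfd2l (2.22) and Psph/Phgdh (1.61), in lane 2 for Mthfd2/Mthfd2l (2.57) and Psat1/Phgdh (0.73), and in lane 3 for Aldh1l2/Aldh1l1 (1.46), Mthfd2/Mthfd1 (2.77), Psph/Phgdh (1.37) and Shmt2/Shmt1 (1.55). A lane holds 1 or 2 DMSO libraries, so these values have no test and their cause was not tested.

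The labels do not say whether libraries with the same replicate number belong together. Deviations of libraries with the same number correlated at -0.217 to 0.00853, and those with different numbers at -0.155 to 0.183. So few pairs cannot settle whether they share a culture. With the replicate number as a block over replicates 1 to 4, edgeR called 8814 genes, against 9457 in the same libraries without it, and all 8 called members kept their direction. For the ratios the block leaves 4 pairs, so the exact paired test cannot go below p = 0.125, the value all 7 gave: the differences were 1.83 for Aldh1l2/Aldh1l1, 2.40 for Mthfd1l/Mthfd1, 2.94 for Mthfd2/Mthfd1, 2.41 for Mthfd2/Mthfd2l, 0.56 for Psat1/Phgdh, 1.53 for Psph/Phgdh and 1.90 for Shmt2/Shmt1. The highest exact permutation p of any ratio was 0.0119 when a library was left out. All ratios gave that value without a DMSO library, and it is the smallest p the test then allows. In all, 195 of the alternative values for members were labelled unchanged, 13 moved, 2 weaker and 1 reversed. For ratios 95 were unchanged, 10 moved and 7 weaker, and for lists 50 were unchanged and 6 moved. For members and ratios, unchanged means the same side of the threshold, and the same direction where called. In lanes alone it means a move within the spread between libraries. Uncalled members could change sign, as Shmt1 did without DMSO replicate 1 (log2 0.09 against -0.02). List counts could change within a set factor, as for regulators called higher, 7 in the main analysis and 5 under upper-quartile scaling. Depth limits Shmt1 and Mthfd2l, which at 90 to 168 counts per library could hide changes larger than their standard errors, 0.11 and 0.09 on the log2 scale.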
